A study of Macaca mulatta with 24 samples.

Results

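Collagens, laminins, the ADAMTS proteases with their ADAMTS-like relatives, decorin and lumican were described across the layers of the monkey lateral geniculate nucleus (LGN), the thalamic relay of the visual pathway, after 1 eye had been deprived of vision. Members were chosen by gene symbol: every probe set that the platform annotation gave exactly 1 symbol of the form COL, digits, A, digits, or 1 symbol beginning with LAMA, LAMB, LAMC or ADAMTS, or DCN or LUM, with a signal of 100 or more on at least 1 of 24 arrays. The symbol part of the rule took 133 probe sets of 67 genes, and 94 probe sets of 59 genes passed the signal part, out of 52766 probe sets on the array and 37623, with 12107 single gene symbols, that passed the same signal filter. The 39 members that did not pass had maxima from 23.7 to 95.5, and 8 genes had no probe set left: ADAMTS17, ADAMTS19, ADAMTS20, ADAMTSL5, COL10A1, COL1A1, COL26A1 and COL8A2. At the threshold, the highest signals were 91.2 for 1 probe set of LAMB4 and 95.5 for 1 of COL2A1, just outside, and 102.2 for another probe set of LAMB4 and 108.8 for 1 of LAMA3, just inside. COL4A1, COL4A2 and LAMA5, main chains of vascular basement membranes, were among 15 further genes of these families that were not analysed here.

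The arrays came from 2 infant rhesus monkeys whose left eye was closed to vision from birth, in 1 by an opaque contact lens for 2 months and in the other by tarsorrhaphy, the suturing of the eyelids, for 4 months. From the left and right LGN of either animal the 6 layers were laser captured one by one, leaving out the koniocellular zones, for 24 arrays of 1 layer each. Layers 2, 3 and 5 on the side of the closed eye and layers 1, 4 and 6 on the opposite side receive its input and are called deprived here, and the remaining layers of the same LGNs are the nondeprived controls. Layers 3 to 6, the parvocellular ones of small neurons, gave 8 arrays of each status, and layers 1 and 2, the magnocellular ones of large neurons, gave 4 of each. No LGN of a normally reared animal is in this comparison, so nondeprived layers are those of the fellow eye in a deprived animal. Duration, method of closure and animal are the same split and cannot be told apart, and since all layers came from 2 animals, the p-values below measure the spread between layers and are too small as statements about animals.

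The extracellular matrix of the brain is of several kinds. Basement membranes, sheets of type IV collagen and laminin, surround vessels and line the pial surface, and fibrillar collagens with decorin and lumican belong mainly to the meninges and to the sheaths of larger vessels. The space between neurons holds little collagen and is filled by hyaluronan and by lecticans such as aggrecan and versican, which ADAMTS proteases cut. Some collagens are made by neurons themselves, among them some transmembrane collagens, whose ectodomains stand on the cell surface.

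Signals are given in the linear units of the array software, with every array scaled to the same trimmed mean, and differences are given as log2 of the signal. A difference was called at an adjusted p under 0.05 from limma, fitted over all 37623 probe sets with the LGN as a block. A captured layer holds many cell types, so that fewer cells of a type and less RNA per cell cannot be told apart in any value below. Of the 94 members, 33 reached a signal of 100 on all 24 arrays, 15 on 2 to 6 arrays and 13 on 1 array alone, and only 61 had a mean signal of 100 or more. Of the 59 genes, 25 had several probe sets, and these disagreed in sign for 8 genes in the parvocellular deprivation comparison, for 11 in the magnocellular one and for 10 between the layer classes. The array of deprived layer 2 of the 2-month animal stood apart, with a GAPDH 3′ to 5′ ratio of 50.8, a sign of shortened RNA, against 1.97 to 14.3 on the others, and with 57.1% of probe sets at 100 or more against 40.6% to 53.0%. Markers of the tissue were high on all arrays: the signal summed over 4 neuron markers lay between 67007 and 126485, and NEFH, the heavy neurofilament of large axons, was lower in parvocellular than in magnocellular layers by a log2 difference of -0.66 (adjusted p = 0.0023).

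**Figure D1:**
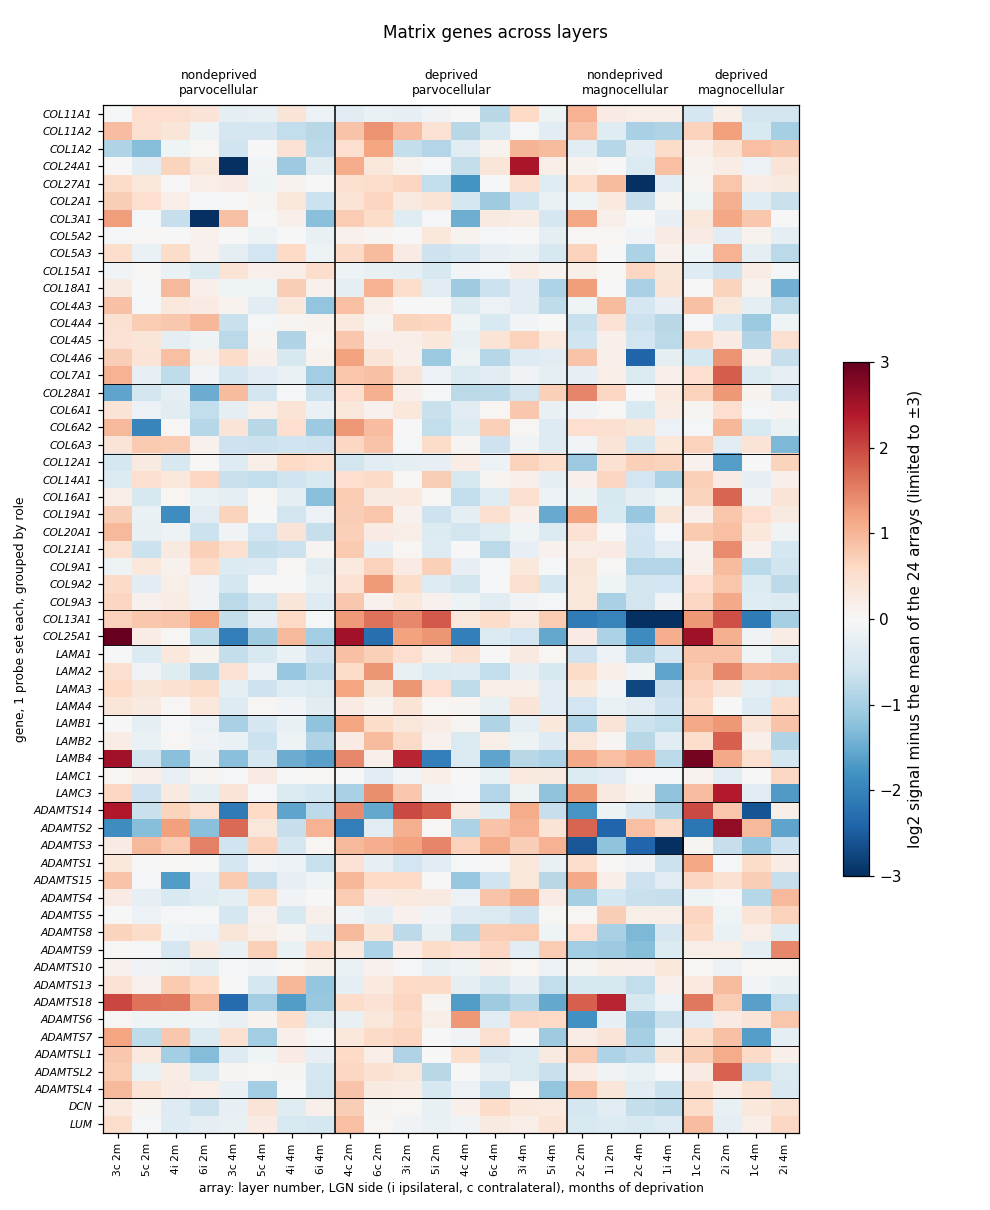
Signals of the 59 genes, 1 probe set each, on the 24 arrays, as log2 of the signal minus the mean over the 24 arrays of that probe set, limited to 3 units either way; columns are arrays with their layer, side and months of deprivation. COL13A1 and ADAMTS3 stand low in the magnocellular columns, most of all in the nondeprived ones, and ADAMTS18 stands low in the columns of the 4-month animal.

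In parvocellular layers, 1 of the 94 members differed between deprived and nondeprived layers. COL13A1, a transmembrane collagen that sits at cell adhesions and at the neuromuscular junction, was higher in the deprived layers. Background to this count is the 0.970% of all probe sets called in either direction in the same comparison (0.585% higher), and 1 of 94, or 1.06%, is close to it. No member had separate ranges in the 8 deprived and 8 nondeprived arrays, as 0.0930% of all probe sets had upward and 0.0718% downward. A rule of fold size after the study's, a mean fold of 1.7 with 6 of 8 layer pairs in 1 direction by the sign of their ratio, without the software's change and absence calls that the study also required, took ADAMTSL1 and COL24A1 as higher and a probe set of LAMA3 as lower, all of low signal, where it took 1.69% and 1.75% of all probe sets. At an unadjusted p under 0.05, 13 members (13.8%) stood against 11.4% of all probe sets. The median log2 difference was 0.15 over the members, of which 59 were positive, and -0.01 over all probe sets.

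COL13A1 (MmuSTS.1876.1.S1_at) had signals of 954 (lowest), 1616 (median) and 2790 (highest) on the 8 deprived parvocellular arrays and of 474, 1225 and 1778 on the 8 nondeprived ones. The ranges overlapped over both animals, but in the 2-month animal the 4 deprived arrays, from 1898 to 2790, lay above the 4 nondeprived arrays, from 1260 to 1778. In the 4-month animal the deprived arrays lay between 954 and 1333 and the nondeprived ones between 474 and 1190. The log2 difference was 0.63 ± 0.14 (SE; n = 8 and 8 arrays; adjusted p = 0.0309), and it was positive in 4 of 4 LGNs, from 0.25 to 0.93. The call held in 7 of the 16 fits that left out 1 array, with the difference between 0.56 and 0.72 and the adjusted p between 0.0104 and 0.0759, and in 6 of 15 other settings; it was lost once the GAPDH ratio entered the model (0.55, adjusted p = 0.0807). The second probe set of COL13A1 (MmugDNA.16745.1.S1_s_at) gave 0.57 in the same direction and did not pass (adjusted p = 0.496).

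The other members with the smallest p in parvocellular layers were positive and did not pass after adjustment. ADAMTS3, which trims the amino propeptide of procollagen II and activates the lymphatic growth factor VEGFC, had signals of 1851, 2374 and 3134 (lowest, median, highest) in deprived and of 758, 1603 and 3260 in nondeprived parvocellular layers, with a log2 difference of 0.64 ± 0.19 (adjusted p = 0.113). LAMA1, the alpha chain of laminin-111, had 127, 165 and 235 against 77.5, 105 and 159, a log2 difference of 0.63 ± 0.19 (adjusted p = 0.133). For both genes the difference was positive in 4 of 4 LGNs while the ranges overlapped. ADAMTS4, an aggrecanase, had 1586, 2192 and 3767 against 1305, 1596 and 2650, a log2 difference of 0.53 ± 0.17 (adjusted p = 0.154), and its other probe set gave 0.31. COL4A5, a type IV collagen chain, had 1256, 1804 and 2537 against 781, 1410 and 1962, a log2 difference of 0.49 ± 0.17 (adjusted p = 0.214), and its other probe set, of mean signal 56.4, gave 0.30. COL18A1, the basement membrane collagen that yields endostatin, pointed both ways: 1 probe set had 2357, 3948 and 10284 against 4554, 5467 and 9755, a log2 difference of -0.50 ± 0.21 (adjusted p = 0.335), and the other, dim at 18.7 to 124, gave 0.48. With 1 array left out, the bright probe set of COL18A1 passed without deprived layer 6 of the 2-month animal (-0.69, adjusted p = 0.0402). ADAMTS4 passed without deprived layer 4 of the 4-month animal (0.65, adjusted p = 0.0346).

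**Figure D2:**
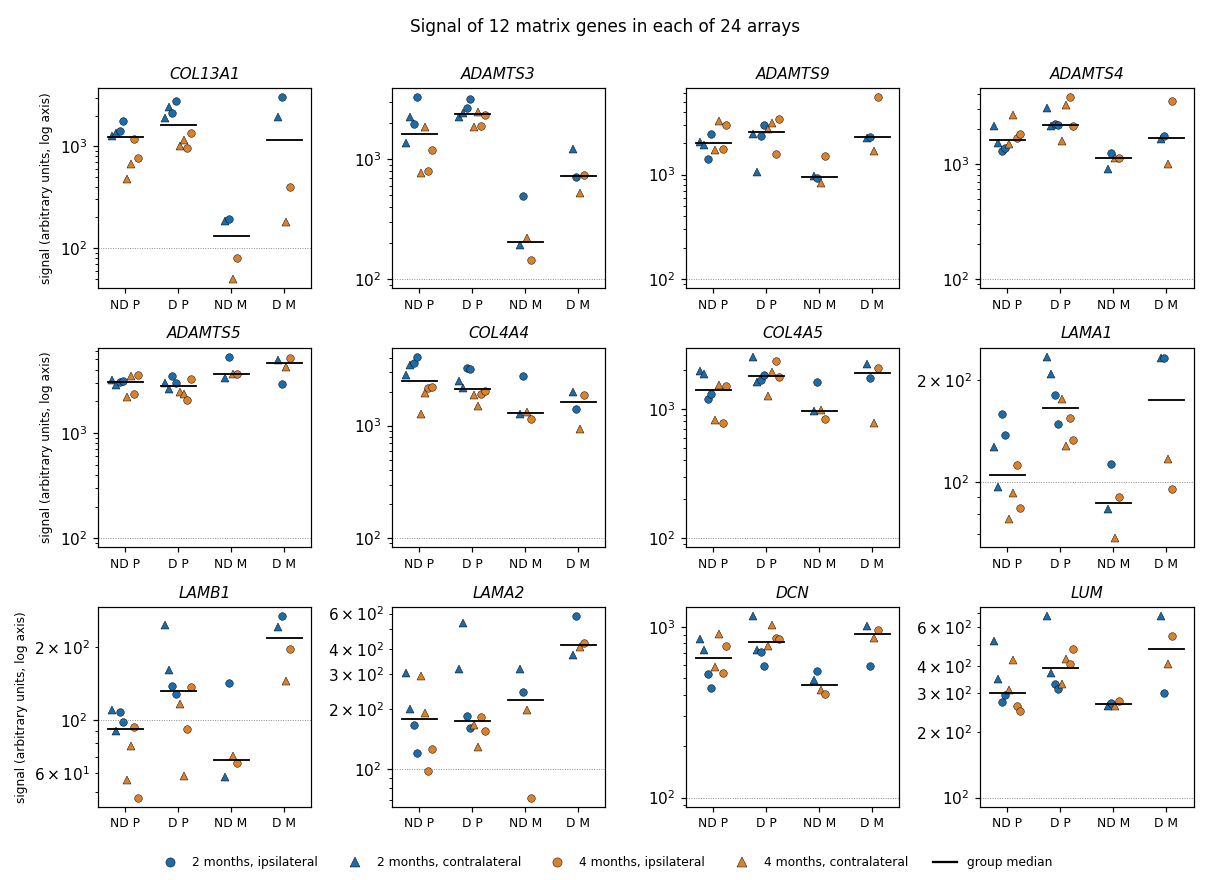
Signals of named members on the 24 arrays (log axis), grouped as nondeprived (ND) and deprived (D) parvocellular (P) and magnocellular (M) layers, with blue for the 2-month and orange for the 4-month animal, circles for ipsilateral and triangles for contralateral LGNs, a black bar at the group median and a dotted line at a signal of 100. COL13A1 and ADAMTS3 are lowest in nondeprived magnocellular layers.

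In magnocellular layers no member passed the test, in a comparison in which 0% of all probe sets passed (0 of 37623). On simulated data the same fit recovered 0 of 100 changes of 1 and 0 of 100 changes of 2 on the log2 scale. The absence of a call in magnocellular layers, for members and markers alike, therefore does not show the absence of a change. At an unadjusted p under 0.05 limma gave 11 members (11.7%), against 5.68% of all probe sets. The median log2 difference was 0.35 over the members, of which 70 were positive, and 0.13 over all probe sets. Part of that shift is common to the arrays: quantile normalization moved the median of all probe sets to -0.01 and that of the members to 0.17 (56 positive), and scaling to a common median moved them to -0.15 and 0.07 (50 positive). The members lay 0.22 above all probe sets as deposited and 0.18 above them after quantile normalization; scaling to a common median moves every probe set alike and leaves that distance as it is.

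COL13A1 (MmuSTS.1876.1.S1_at) had the smallest p of the members there. Its signals in deprived magnocellular layers were 1928 (layer 1, contralateral) and 3012 (layer 2, ipsilateral) in the 2-month animal and 181 and 393 in the 4-month animal. In nondeprived magnocellular layers they were 184 (layer 2, contralateral) and 194 (layer 1, ipsilateral) in the 2-month animal and 49.6 and 79.3 in the 4-month animal. Deprived was above nondeprived in every LGN, and over both animals the groups overlapped, with the lowest deprived signal of 181 under the highest nondeprived signal of 194. The log2 difference was 2.88 ± 0.41 (n = 4 and 4 arrays; limma, adjusted p = 0.398), with 3.39 and 3.95 in the LGNs of the 2-month animal and 1.86 and 2.31 in those of the 4-month animal. Without the array that stood apart it was 2.52 (adjusted p = 0.605), and in the 2-month animal alone, with 2 arrays against 2, it passed (3.67, adjusted p = 0.0157). The second probe set had 414 and 532 in deprived and 132 and 14.3 in nondeprived layers of the 2-month animal, but 23.4 and 49.5 against 53.8 and 21.1 in the 4-month animal, near the level of background.

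Signals did not overlap between the 4 deprived and the 4 nondeprived magnocellular arrays for 9 of the 94 members. Of these, 8 members (8.51%) were higher in deprived layers, where 2.78% of all probe sets were, and 1 (1.06%) was lower, where 1.29% of all were. The 8 were probe sets of ADAMTS9, ADAMTS3, LAMA2, LAMB1, DCN, LUM, COL14A1 and COL16A1, and the 1 was ADAMTS10, a protease of fibrillin microfibrils. None of them passed the test. By the fold rule, here 4 of 4 layer pairs in 1 direction, 14 members were higher and 3 lower, where 5.57% and 1.29% of all probe sets were.

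Among the proteases, ADAMTS9, which cuts versican and aggrecan, had signals of 2242, 2313, 1668 and 5468 in deprived magnocellular layers, in the order contralateral and ipsilateral LGN of the 2-month and then of the 4-month animal, and of 966, 933, 825 and 1518 in nondeprived ones. Its log2 difference was 1.35 ± 0.26 (limma, adjusted p = 0.836), while in parvocellular layers it was 0.13. Its other probe set gave 0.57 in magnocellular and 0.41 in parvocellular layers, so the larger magnocellular value rests on 1 probe set. ADAMTS3 had 1213, 706, 517 and 742 against 192, 493.5, 218 and 144, a log2 difference of 1.7 ± 0.40. ADAMTS10 had 2499, 2105, 2483 and 2472 against 2533, 2693, 2648 and 3037, a log2 difference of -0.19, while its other 2 probe sets gave 0.72 and, near background, -0.27. In all 3 the groups were separated by narrow margins. ADAMTS6, named after its values were seen, had a log2 difference of 1.23 ± 0.42, with 124 to 281 in deprived and 44.7 to 134 in nondeprived layers, which overlapped.

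Among the laminins, LAMB1, a beta chain of many basement membrane laminins, had 242, 270, 146 and 197 in deprived and 58.1, 143, 70.5 and 66.2 in nondeprived magnocellular layers (MmugDNA.22537.1.S1_s_at; log2 difference 1.4 ± 0.42). Its other probe set gave 0.19, so the gene rests on 1 probe set. LAMA2, the alpha chain of the main laminin of muscle and peripheral nerve, had 373, 584, 409 and 425 against 317, 244, 198 and 72.1 (MmugDNA.13762.1.S1_at; 1.28 ± 0.41), and its other probe set gave 0.48. LAMA4 and LAMC1, chains of vascular laminins, gave 0.62 and 0.32, and LAMB2 gave 0.59. LAMA3, named after its values were seen, gave 0.88, -0.14 and -1.18 by its 3 probe sets, of mean signals 129, 20.3 and 66.1. None of the 13 laminin probe sets passed in either deprivation comparison.

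DCN and LUM, small leucine-rich proteoglycans that bind collagen fibrils, had the same pattern at moderate signals. DCN (MmugDNA.13802.1.S1_at) had 1013, 592, 861 and 961 in deprived and 491, 550, 425 and 405 in nondeprived magnocellular layers, a log2 difference of 0.85 ± 0.31, and its 5 probe sets ranged from -0.27 to 0.85. LUM (MmugDNA.40392.1.S1_at) had 677, 300.3, 409 and 550.3 against 261, 271, 263 and 277, a log2 difference of 0.79 ± 0.34, and its other probe set, of mean signal 81.3, gave 0.52. In both, the deprived layer of the array that stood apart was the lowest of its group. In parvocellular layers the same probe sets gave 0.34 for DCN and 0.32 for LUM, positive in 4 of 4 LGNs, and neither passed. The probe sets of both genes disagreed in sign there: the other of LUM gave -0.42, and the other 4 of DCN ranged from -0.28 to 0.22.

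Among the collagens, the FACIT collagens, which attach to fibrils, held COL14A1, with 177, 245, 128 and 144 in deprived against 125, 112, 91.7 and 72.0 in nondeprived magnocellular layers, and COL16A1, with 469, 992, 271 and 384 against 266, 212, 240 and 268. Their log2 differences were 0.78 and 0.93, and the other 2 probe sets of COL14A1 gave 0.40 and -0.01, so its probe sets disagreed. Of the fibrillar collagens, COL1A2 gave 1.06 and 0.83 by its 2 probe sets, both positive in 4 of 4 LGNs, and COL3A1 gave 0.30. COL11A1 and COL15A1 pointed down: COL11A1 had 432 to 732 in deprived and 727 to 1316 in nondeprived layers (-0.78 by 1 probe set and 0.15 by the other), and COL15A1, a collagen of vascular basement membranes, had 461 to 831 against 731 to 1093 (-0.51). COL5A2, the member of highest signal by 1 probe set, had 4411 to 6597 in deprived and 5313 to 6665 in nondeprived layers (-0.13), and its other 3 probe sets gave 0.40, 0.13 and 0.06. COL1A2, COL3A1, COL11A1, COL15A1 and COL16A1 were named after their values were seen.

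**Figure D3:**
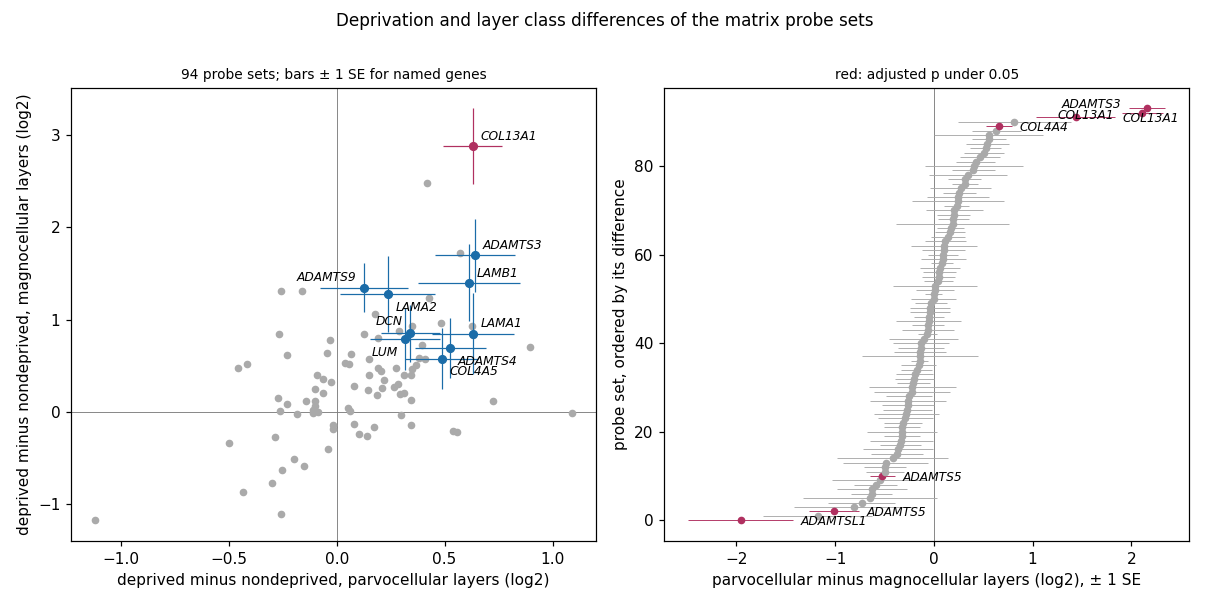
Left, the log2 difference of deprived minus nondeprived layers in parvocellular (horizontal) and magnocellular (vertical) layers for the 94 members, with bars of 1 SE for named genes and COL13A1 in red; right, the log2 difference of parvocellular minus magnocellular layers with 1 SE, members in order of the difference, those past the adjusted threshold in red. COL13A1 lies farthest up at 2.88, and 70 of 94 members lie above 0 on the vertical axis of the left plot.

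By role, the median log2 difference in parvocellular and in magnocellular layers was 0.15 and 0.15 for the 15 probe sets of fibrillar collagens, -0.06 and -0.01 for the 12 of basement membrane collagens, 0.16 and 0.03 for the 6 of beaded and network collagens, 0.15 and 0.40 for the 11 of FACIT collagens and 0.57 and 1.72 for the 3 of transmembrane collagens (COL13A1 and COL25A1). For laminin chains it was 0.24 and 0.62 (7 alpha), 0.35 and 0.49 (4 beta) and -0.05 and 0.26 (2 gamma). For proteases it was 0.09 and 0.44 in the 10 probe sets of the versican and aggrecan group, 0.62 and 0.94 in the 3 of procollagen proteases and -0.02 and -0.19 in the 9 of other ADAMTS. ADAMTS-like proteins, which lack the protease domain, gave 0.19 and 0.70 (5 probe sets, of which 3 had mean signals under 100), and DCN with LUM gave 0.08 and 0.35 (7 probe sets). In magnocellular layers, where the median of all probe sets was 0.13, fibrillar collagens lay near it, basement membrane collagens below it, and transmembrane collagens, procollagen proteases, ADAMTS-like proteins and laminin alpha chains farthest above it. The value for procollagen proteases is that of ADAMTS14, with a mean signal of 33.5 and a signal of 100 or more on 1 array, and of the other 2 ADAMTS3 gave 1.7 and ADAMTS2, with a mean signal of 47.3, gave -0.24. The values for transmembrane collagens are those of the second probe set of COL13A1, near background in magnocellular layers of the 4-month animal. COL25A1, with magnocellular signals of 6.76 to 147, gave -0.16 in parvocellular and 1.31 in magnocellular layers. COL13A1 was the 1 call for deprivation in these groups.

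Between the layer classes, 7 of the 94 members differed (7.45%), against 3.60% of all probe sets: 4 were higher in parvocellular layers (2.25% of all) and 3 lower (1.35% of all). At an unadjusted p under 0.05 there were 21 members (22.3%), against 16.4% of all probe sets, and the median log2 difference was -0.04 over the members and -0.03 over all. The 4 were ADAMTS3, both probe sets of COL13A1 and 1 of COL4A4, and the 3 were 2 probe sets of ADAMTS5 and 1 of ADAMTSL1. Over all 24 arrays no member had separate ranges in the 2 classes, as 0.0505% of all probe sets had upward and 0.0292% downward.

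ADAMTS3 was higher in parvocellular layers by a log2 difference of 2.16 ± 0.18 (adjusted p = 4.7e-08), at 2.07, 2.25, 2.19 and 2.13 in the 4 LGNs. Its 16 parvocellular arrays lay between 758 and 3260 and its 8 magnocellular arrays between 144 and 1213. COL13A1 was higher by 2.11 ± 0.21 (adjusted p = 5.7e-07) and, by its second probe set, by 1.43 ± 0.40 (adjusted p = 0.0432), a call that held in 8 of the 24 fits that left out 1 array. For COL13A1 the class difference was 3.24 among nondeprived arrays, which passed, and 0.98 among deprived ones, which did not (adjusted p = 0.336). For ADAMTS3 it was 2.69 and 1.63, and both passed. The difference of the deprivation effect between classes is given below.

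COL4A4, a type IV collagen chain, had 1278 to 4088 in parvocellular layers (median 2497 in nondeprived and 2105 in deprived ones) and 2004, 1407, 937 and 1861 in deprived and 1276, 2744, 1312 and 1152 in nondeprived magnocellular layers. Its log2 difference of 0.66 ± 0.13 (adjusted p = 0.0032) was positive in 4 of 4 LGNs, and its other probe set gave 0.63 and did not pass (adjusted p = 0.186). COL4A3, its partner in the type IV network, gave -0.10 and -0.04, and COL4A5 gave 0.26 and 0.41. ADAMTS5, an aggrecanase, had 2066 to 3562 in parvocellular and 2941 to 5316 in magnocellular layers, with a log2 difference of -0.52 ± 0.12 (MmugDNA.30736.1.S1_at; adjusted p = 0.0161). A dim probe set of ADAMTS5 gave -1.02 ± 0.25 (adjusted p = 0.0218), with 24.1 to 98.8 in parvocellular and 75.3 to 176 in magnocellular layers, and the third gave -0.19 without a call. ADAMTSL1, an ADAMTS-like protein, was lower by -1.96 ± 0.53 (adjusted p = 0.0379), but its signals of 1.71 to 71.7 in parvocellular and 20.9 to 126 in magnocellular layers reached 100 on 1 array.

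Without the array that stood apart, 7 members again differed between the classes, 6 higher and 1 lower, but not the same 7. ADAMTS3, both probe sets of COL13A1, COL4A4 and ADAMTS5 (MmugDNA.30736.1.S1_at) kept their calls. The second probe set of COL4A4 (0.85, adjusted p = 0.043) and COL9A1 (0.43, adjusted p = 0.0389) joined them, and the dim probe sets of ADAMTS5 (adjusted p = 0.0607) and ADAMTSL1 (adjusted p = 0.086) left. COL9A1, a FACIT collagen with a high signal, had medians of 2210 in deprived and 1780 in nondeprived parvocellular layers and gave 0.31 with all arrays, short of the threshold.

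The deprivation effect itself was compared between the classes, and no member passed, as none of all probe sets did (0%). At an unadjusted p under 0.05 limma gave 7 members (7.45%), against 6.75% of all probe sets. COL13A1 had a parvocellular effect smaller than its magnocellular effect by a log2 difference of -2.25 ± 0.42 (adjusted p = 0.265). Of 15 other settings that difference passed in 1, the 2-month animal alone (-3.0, adjusted p = 0.0073), with adjusted p up to 0.999 in the rest. Of 24 fits that left out 1 array it passed in 1, without deprived layer 1 of the 4-month animal (-2.70, adjusted p = 0.0052). In the other such fits the adjusted p reached 0.58. ADAMTS9 gave -1.22 ± 0.40, ADAMTS3 -1.06 ± 0.37, LAMA2 -1.04 ± 0.43 and COL14A1 -0.81 ± 0.39, and none passed. Each of these genes but ADAMTS3 had other probe sets with values nearer 0: the second of COL13A1 gave -1.15, that of ADAMTS9 -0.16 and that of LAMA2 -0.29, and the other 2 of COL14A1 gave -0.08 and -0.06. The median was -0.20 over the members and -0.11 over all probe sets, and 27 members were positive here, 42 after quantile normalization and 59 after scaling to a common median, which moves every probe set by 0.31 and leaves the members 0.09 below all.

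**Figure D4:**
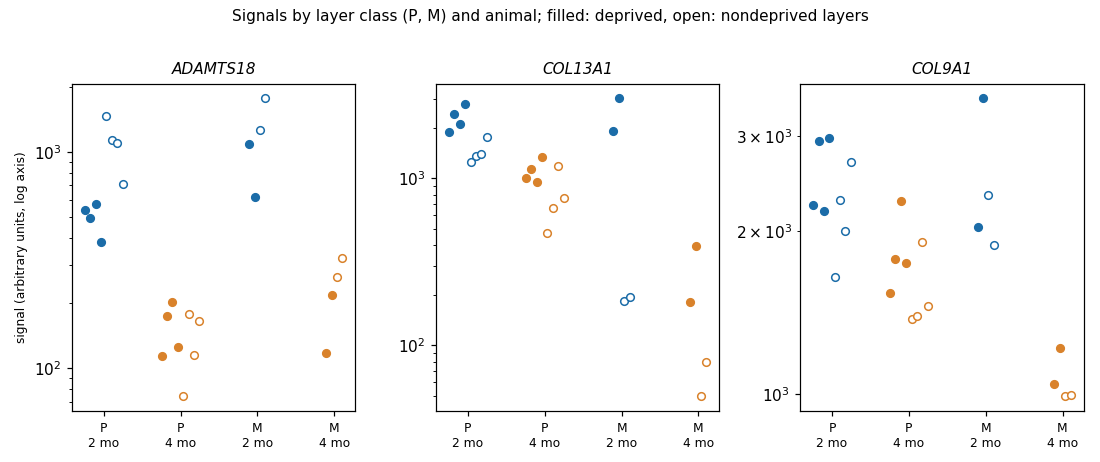
Signals (log axis) of ADAMTS18, COL13A1 and COL9A1 in the 2-month and the 4-month animal by layer class, with filled points for deprived and open points for nondeprived layers. The probe set of ADAMTS18 shown (MmugDNA.7641.1.S1_at) is lower on every array of the 4-month animal than on any of the 2-month animal.

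The animals were set side by side without a test of duration. ADAMTS18 (MmugDNA.7641.1.S1_at), a protease named after its values were seen, was the 1 member (of 94) with separate ranges in the animals. Its 12 arrays of the 2-month animal all lay above the 12 of the 4-month animal, as did 0.449% of all probe sets. No member lay wholly below (0.582% of all). In parvocellular layers of the 2-month animal its deprived signals were 384 to 575 and its nondeprived signals 715 to 1474, with no overlap, and in the 4-month animal they were 114 to 202 and 74.2 to 178, with overlap. In magnocellular layers they were 1088 and 619 in deprived and 1258 and 1769 in nondeprived layers of the 2-month animal, and 117 and 218 against 263 and 325 in the 4-month animal. The parvocellular log2 differences were -1.33 and -0.92 in the LGNs of the 2-month animal and 0.29 and 0.21 in those of the 4-month animal. These values are of 1 probe set. The other probe set of ADAMTS18, which was dim, overlapped between the animals in parvocellular layers (29.2 to 85.2 and 8.83 to 63.6). In magnocellular layers it had 46.2 to 109 in the 2-month and 14.9 to 34.1 in the 4-month animal. No member passed in the difference of the deprivation effect between animals in parvocellular or magnocellular layers (0% of all probe sets in both; limma gave 4 and 2 members at an unadjusted p under 0.05, which is 4.26% and 2.13%, against 3.89% and 1.24% of all).

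Markers of meninges, vessels and blood were read beside these values, since DCN, LUM, COL1A2 and COL3A1 are also made by meningeal and perivascular fibroblasts and laminins by vessel walls. In these and the later gene lists, each gene stood as 1 probe set, that of the highest mean log2 signal. Its other probe sets were not read. Of 20 meningeal fibroblast markers 13 were measured. Their summed signal was 4742 to 5213 in deprived and 3939 to 4406 in nondeprived magnocellular layers, with no overlap, and 3175 to 4793 and 3341 to 5007 in parvocellular layers. On the deposited scale the mean log2 signal over the markers separated the magnocellular groups in the same way, at 7.10 to 7.87 in deprived and 6.52 to 7.05 in nondeprived layers. In that comparison 12 of the 13 were positive, with a median log2 difference of 0.57 and no call (3 at an unadjusted p under 0.05). The median of all probe sets there was 0.13 as deposited and -0.15 after scaling to a common median, and the marker list was read as deposited. Median signals were 131, 93.6, 64.1 and 83.9 on the deprived magnocellular arrays and 70.6, 91.9, 74.5 and 62.2 on the nondeprived ones. Whether the separation of the marker level holds at a common median was not tested. SLC47A1, a transporter, gave a large part of the sum, at 1937 to 2612 and 1752 to 2498. Its ranges overlapped where those of the sum did not. The more defining markers were dim: OGN had 71.4 to 232 in deprived and 32.3 to 109 in nondeprived magnocellular layers, and SLC13A4 had 48.2 to 126 and 7.49 to 51.4. In parvocellular layers 7 of the 13 were positive, with a median of 0.13 and no call (4 at an unadjusted p under 0.05). ASPN, a relative of decorin, had the smallest p in both classes (1.00 and 1.33, adjusted p = 0.138 and 0.836).

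Summed signals of vessel markers overlapped between deprived and nondeprived layers. The summed signal of 14 endothelial markers was 9486 to 13716 in deprived and 8977 to 10763 in nondeprived magnocellular layers and 8797 to 13897 and 9442 to 12438 in parvocellular layers, with a median log2 difference of 0.00 in parvocellular and 0.11 in magnocellular layers and no call. For 9 mural markers, of pericytes and smooth muscle, the sums were 3162 to 4948 and 3098 to 4616 in magnocellular and 2677 to 5955 and 3247 to 4850 in parvocellular layers. Of the mural markers 8 of 9 were positive in magnocellular layers, with a median of 0.37 and MYH11, the smooth muscle myosin, at 1.13 ± 0.45 (adjusted p = 0.836). The 2 measured blood markers summed to 133 to 576 on all arrays, and 5 choroid plexus markers to 683 to 2187, with no call for deprivation or layer class. Between layer classes, TWIST1 was higher (0.74, adjusted p = 0.0069) and SLC47A1 lower (-0.47, adjusted p = 0.0144) in parvocellular layers. The 2 called meningeal markers pointed opposite ways, but only 3 of the 13 were higher in parvocellular layers. Their median log2 difference was -0.24, against -0.03 over all probe sets. No endothelial or mural marker was called. Of 14 endothelial markers 11 were higher in parvocellular layers, with a median of 0.15 and 5 at an unadjusted p under 0.05 (limma). Of 9 mural markers 5 were higher, with a median of 0.05. The part of these tissues in the class differences of the members was not tested.

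**Figure D5:**
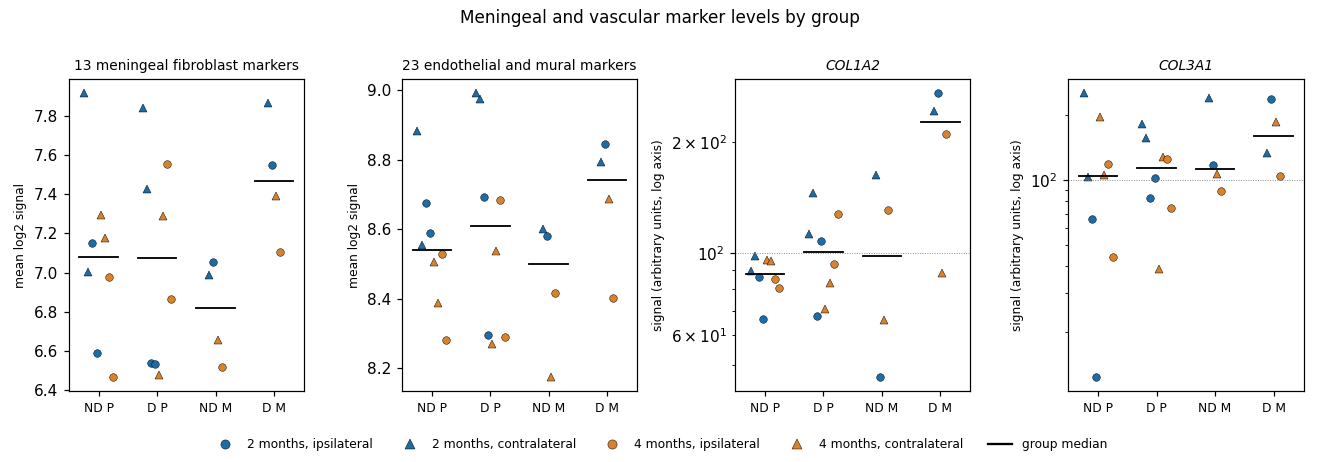
From left to right, the mean log2 signal of 13 meningeal fibroblast markers, that of 23 endothelial and mural markers, and the signals of COL1A2 and COL3A1 (log axes) on each array, grouped as nondeprived (ND) and deprived (D) parvocellular (P) and magnocellular (M) layers, with blue for the 2-month and orange for the 4-month animal, circles for ipsilateral and triangles for contralateral LGNs and a black bar at the group median. On the deposited scale, deprived magnocellular arrays, at 7.10 to 7.87, lie above nondeprived ones, at 6.52 to 7.05, for the meningeal list.

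With the mean meningeal marker level in the fit, the parvocellular difference of COL13A1 was 0.63 (adjusted p = 0.0269), and with the mean vascular level it was 0.65 (adjusted p = 0.0226). The 7 class differences kept their calls with either covariate, with 2.15 and 2.17 for ADAMTS3 and 2.11 and 2.11 for COL13A1. With the meningeal level, DCN (MmugDNA.32965.1.S1_at; 0.55, adjusted p = 0.0401) and ADAMTS4 (MmunewRS.1070.1.S1_at; 0.59, adjusted p = 0.0374) joined them in limma. Without a covariate the 5 probe sets of DCN gave class differences from 0.20 to 0.53, uncalled, and the 2 of LUM gave -0.06 and 0.04. In magnocellular layers the meningeal level nearly follows deprivation and the fits became imprecise: COL13A1 gave 3.64 ± 1.90, ADAMTS9 2.01 ± 1.29, LAMA2 3.92 ± 1.80, ADAMTS3 -0.84 ± 1.71 and LAMB1 -0.05 ± 2.09, so that the last 2 changed sign. With the vascular level they gave 3.10, 1.7, 1.85, 2.31 and 1.71 in the same order. The deprivation difference of no member in magnocellular layers can be told apart from the deposited level of meningeal markers in these 8 arrays. That statement rests on the level nearly following deprivation, which is the same for every member. Fits with the level are given only for the members named above, and not for DCN, LUM, COL1A2 or the other laminins.

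Markers of glia and neurons were read in the same way. GFAP, the astrocyte filament, was higher in deprived parvocellular layers by 1.07 (adjusted p = 0.0184), at 3470 to 13219 against 2616 to 4165, and had 0.81 in magnocellular layers; it was the only deprivation call among the 8 measured astrocyte markers, and their summed signal in parvocellular layers was 57581 to 90060 with deprivation and 53423 to 73214 without. No microglia (10), oligodendrocyte (3), oligodendrocyte precursor (4), neuron (4) or thalamic relay neuron (4) marker was called for deprivation. Most glial markers were nevertheless positive in parvocellular layers, where the median of all probe sets was -0.01. Positive there were 9 of 10 microglia (median 0.28), 7 of 8 astrocyte (0.20), 3 of 3 oligodendrocyte (0.16) and 4 of 4 precursor markers (0.17). In magnocellular layers, against 0.13 over all, the counts were 7 of 10 (0.26), 7 of 8 (0.39), 3 of 3 (0.28) and 2 of 4 (0.12). All 4 neuron markers were negative in parvocellular layers, with a median of -0.16. Between classes, GLUL of astrocytes (-0.32) and CD68 of microglia (-0.46) were lower in parvocellular layers, as NEFH was. The part of these cell types in the values of the members was not tested.

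Receptors and partners of these proteins were read from fixed lists, with 1 probe set per gene. Beside them stand the 0.970% of all probe sets called for deprivation in parvocellular layers and the 3.60% called between layer classes. Of 13 integrin subunits, ITGB8, which activates latent TGF-beta, was the only one called for deprivation: in parvocellular layers its signal was 1278 to 2158 with deprivation and 762 to 1436 without (0.55 ± 0.13, adjusted p = 0.0435), and in magnocellular layers 1570 to 2538 against 815 to 1177, with no overlap (1.10 ± 0.26, adjusted p = 0.836). ITGA6, a laminin receptor subunit, had 0.48 (adjusted p = 0.0507). None of 10 other matrix receptors was called for deprivation or layer class. Of 8 basement membrane partners none was called, with medians of 0.39 and 0.53 in parvocellular and magnocellular layers. NTN4, a laminin-related netrin that disturbs laminin networks, had 85.4 to 293 in deprived and 30.8 to 64.6 in nondeprived magnocellular layers (1.94 ± 0.50), and 0.86 in parvocellular layers.

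Of 19 genes of collagen processing and crosslinking none was called for deprivation, and between classes PCOLCE2, an enhancer of procollagen C-proteinase, was higher (0.50, adjusted p = 0.0222) and TLL1, a C-proteinase, lower in parvocellular layers (-1.54, adjusted p = 0.0034). Of 9 matrix metalloproteinases, MMP1, interstitial collagenase, was called between classes at signals of 39.6 to 104 in parvocellular and 27.3 to 55.8 in magnocellular layers (0.81, adjusted p = 0.0357). None of 4 metalloproteinase inhibitors was called. Of 5 measured ADAMTS substrates none was called; ACAN, aggrecan, had 953 to 2714 with and 756 to 1843 without deprivation in parvocellular layers (0.61 ± 0.19, adjusted p = 0.133), and VCAN, versican, had 0.57 in parvocellular and 0.82 in magnocellular layers (adjusted p = 0.222 and 0.836).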

How the data were processed

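Layers were laser captured from frozen sections, several sections were pooled per layer and LGN, and RNA went through 2 rounds of T7 amplification before hybridization to 1-colour rhesus macaque arrays. The authors made the deposited signal intensity with Affymetrix GCOS, and every array had a trimmed mean of 500.04 after leaving out 2% at each end; the intensities are linear, with no further normalization here. Layer class was read from the layer number in the labels. Of 52865 probe sets in the file 99 controls were left out, and 24956 had 1 gene symbol in the platform annotation. Symbols come from that annotation, and no probe or gene sequence was used here. Sequencing depth does not apply, and the number of arrays limits the precision.

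Signals under 1 were set to 1 and log2 taken, probe sets of 100 or more on at least 1 array were kept, and limma 3.58.1 (R 4.3.3) with lmFit and eBayes with a trend and the LGN as a block was fitted over 37623 probe sets, with Benjamini-Hochberg adjustment at 0.05. Comparisons were deprivation within each layer class, class over both statuses, the difference of the deprivation effect between classes and between animals. The probe sets of a gene were not averaged, and each gene of the receptor, partner and marker lists stood as its probe set of highest mean log2 signal. The meningeal and vascular levels are means of log2 signal over the markers of those lists. The fits were tested on simulated data: of 100 changes of 1 and of 2 on the log2 scale, 48 and 76 were recovered in parvocellular layers, 0 and 0 in magnocellular layers and 52 and 83 between classes. The members, gene lists and alternatives were chosen with earlier results of these data known. Named members were those past the threshold in any comparison, the 5 of smallest p in each of the first 4 comparisons, the 10 of highest mean signal, COL13A1, LAMB1, DCN and LUM, each taken with its other probe sets, and, of the receptor, partner and marker lists, the called genes and the 2 of smallest p. Alternatives were other scalings, floors, filters, blocks, covariates, single animals, a fold rule after the study's (with the sign of each pair's ratio in place of the GCOS increase and decrease calls, and without its filter on absent calls) and leaving out each array.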

Additional observations from a re-analysis of the deposited data

Results flagged for a closer look

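In 56 tests of named members over the 4 groups of arrays, 2 held a sample far from the others of its group, by the gap of the highest or lowest array relative to the whole range; a few such samples come by chance in that many groups. COL4A4 (MmugDNA.27825.1.S1_at) had 2744 in nondeprived layer 1 of the ipsilateral LGN of the 2-month animal, where the other 3 nondeprived magnocellular arrays lay between 1152 and 1312. COL13A1 (MmugDNA.16745.1.S1_s_at) had 32.9 in nondeprived layer 6 of the ipsilateral LGN of the 4-month animal, the lowest of 8 nondeprived parvocellular arrays with a median of 199. No cause was tested for either value.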

How the results depend on the processing

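The 1 member called in parvocellular deprivation fell to 0 under scaling to a common median, signals under 50 set to 50, eBayes without a trend, no block, animal as the block, 2 months alone, 4 months alone and the GAPDH ratio as a covariate, and the fold rule by sign of the pair ratios gave 3; leaving out 1 array gave 0 to 2. The adjusted p of COL13A1 there ranged from 0.0226 to 0.59 over 15 alternatives, with the difference between 0.55 and 0.67. In magnocellular deprivation the count of 0 became 1 at 2 months alone and 17 by the fold rule (14 higher, 3 lower; 5.57% and 1.29% of all probe sets met it), and stayed 0 when 1 array was left out. Between classes the count of 7 became 4 without a block, 2 at 2 months, 3 at 4 months, 3 among nondeprived arrays and 1 among deprived ones, and was 5 to 8 when 1 array was left out. The difference of the deprivation effect between classes went from 0 to 1 at 2 months alone and was 0 to 1 when 1 array was left out; that between animals was 0 in parvocellular and 0 to 1 in magnocellular layers. ADAMTS3 (-0.84) and LAMB1 (-0.053) changed sign in magnocellular layers with the meningeal level as a covariate. The cause of these changes was not tested; single animals and single statuses hold fewer arrays. With layer number within animal as a replicate block the parvocellular count was 0 (COL13A1 0.63, adjusted p = 0.0782); residuals of same-numbered layers of an animal correlated by 0.0067 to 0.398, so the numbers were not taken as pairs. For the class comparison no such block could be fitted, because layer number decides class. Scaling to a common median moved the median of all probe sets by 0.12 between classes, and by 0.31, 0.13 and 0.35 in the differences of the deprivation effect between classes and, in parvocellular and magnocellular layers, between animals (quantile normalization: 0.12 and 0.14 in the first and the last). Signals under 100, held by many members on most arrays, limit what low probe sets can show.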
